A study of Mus musculus with 9 samples.

Results

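Hox genes encode homeodomain transcription factors that lie in 4 clusters, HoxA to HoxD, in the mouse genome. The members described here were the rows of the count table whose symbol was Hox followed by a cluster letter and a number, and this rule found 39 of the 23955 rows, with 11 genes in HoxA, 10 in HoxB, 9 in HoxC and 9 in HoxD. The study grew organoids, epithelial cultures raised from gut tissue in a gel, from APCmin/+ mice, which carry 1 mutant copy of the Apc tumour suppressor in every cell. RNA-seq was done on 3 libraries each of organoids from the APC-mutated normal epithelium next to the tumours (MIN), from adenomatous polyps (adenoma), and from adenomatous polyps treated with sulindac, a non-steroidal anti-inflammatory drug (NSAID). All 9 libraries therefore carried the Apc mutation, the MIN controls included, and no library from an animal with intact Apc was analysed here. The medium of all groups held Noggin, EGF, bFGF, R-spondin1 and B27. The labels call the replicates biological, but do not say which animals or polyps they came from, from which stretch of the gut the epithelium and the polyps were taken, or at what dose sulindac was given to the organoids. Gut region and tumour status therefore cannot be told apart in the comparisons with MIN.

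Within a cluster the genes are numbered in the order in which they lie along the chromosome, from the 3′ end (low numbers) to the 5′ end (high numbers), and genes of the same number in different clusters are paralogs. In the embryo, low-numbered genes are switched on earlier and farther forward in the body, and high-numbered genes later and farther back, so that each stretch of the gut tube carries its own combination. Adult gut epithelium keeps part of this pattern, in which posterior genes such as Hoxa13 and Hoxd13 are known from the colon and rectum. Hox proteins bind DNA together with cofactors of the Pbx and Meis families, and Cdx proteins, encoded by the related ParaHox genes, act upstream of them in the gut.

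The libraries held 30881206 to 48412477 counts, of which 559 to 1074 fell on Hox genes. Levels are given as counts or as CPM, counts per 1000000 of a library total after normalization by the TMM method of edgeR. A library with 3 counts or fewer of a gene was treated as at the floor, which lay between 0.0641 and 0.100 CPM and covers counting error only. The 6 markers of epithelium were above the floor in all groups, with summed levels of 5378 to 7663 CPM (MIN), 3252 to 4039 CPM (adenoma) and 4450 to 5171 CPM (sulindac-treated adenoma). Of 10 markers of mesenchyme, which expresses Hox genes strongly in the gut wall, 4 were above the floor in each group. Their summed levels were 4.04 to 4.39 CPM (MIN), 2.53 to 3.61 CPM (adenoma) and 1.34 to 1.92 CPM (with sulindac), and Col1a2, Col3a1, Lum and Dcn were at 0 counts in all 9 libraries. The sum in MIN was mostly Pdgfrb, with 143, 176 and 127 counts against at most 1 in any adenoma library. Of the list, 2 genes were higher and 1 lower in adenoma than MIN, and 6 were not tested, where 18.5% of all genes tested were higher and 20.1% lower. With sulindac against without, 0 were higher, 1 was lower and 6 were not tested, where 8.32% of all genes tested were higher and 9.10% lower. Col1a1 was at 13, 10 and 22 counts in MIN, 40, 32 and 54 in adenoma and 11, 13 and 17 with sulindac. The 6 leukocyte markers summed to 3.89 to 4.48 CPM, 0.419 to 0.730 CPM and 0.145 to 0.400 CPM in the same order of groups. Of these 6, 0 were higher and 2 lower in adenoma than MIN, and 4 were not tested, where 18.5% of all genes tested were higher and 20.1% lower. Ptprc, which marks leukocytes, lay against the direction of the sum, with 0 or 1 count in the MIN libraries, 8, 4 and 4 counts in adenoma and 0 with sulindac. The 3 endothelial markers summed to at most 0.572 CPM and the 4 markers of neurons or glia to at most 1.13 CPM in any library. The part of such cells in the Hox values was not tested.

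Only part of the Hox system was read in these cultures. Of the 39 genes, 9 had 0 counts in all 9 libraries (Hoxb1, Hoxc4, Hoxc9, Hoxc10, Hoxc11, Hoxc12, Hoxc13, Hoxd10 and Hoxd12) and 7 more never exceeded 3 counts (Hoxa11, Hoxb13, Hoxc5, Hoxd1, Hoxd9, Hoxd11 and Hoxd13). The other 23 exceeded the floor in at least 1 library, 10 of 11 in HoxA, 8 of 10 in HoxB, 2 of 9 in HoxC and 3 of 9 in HoxD. HoxA and HoxB thus held most of the genes that were read, and HoxC and the 5′ end of HoxD were nearly empty in all groups. For the genes at or under the floor, expression was not detectable at this depth.

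**Figure D1:**
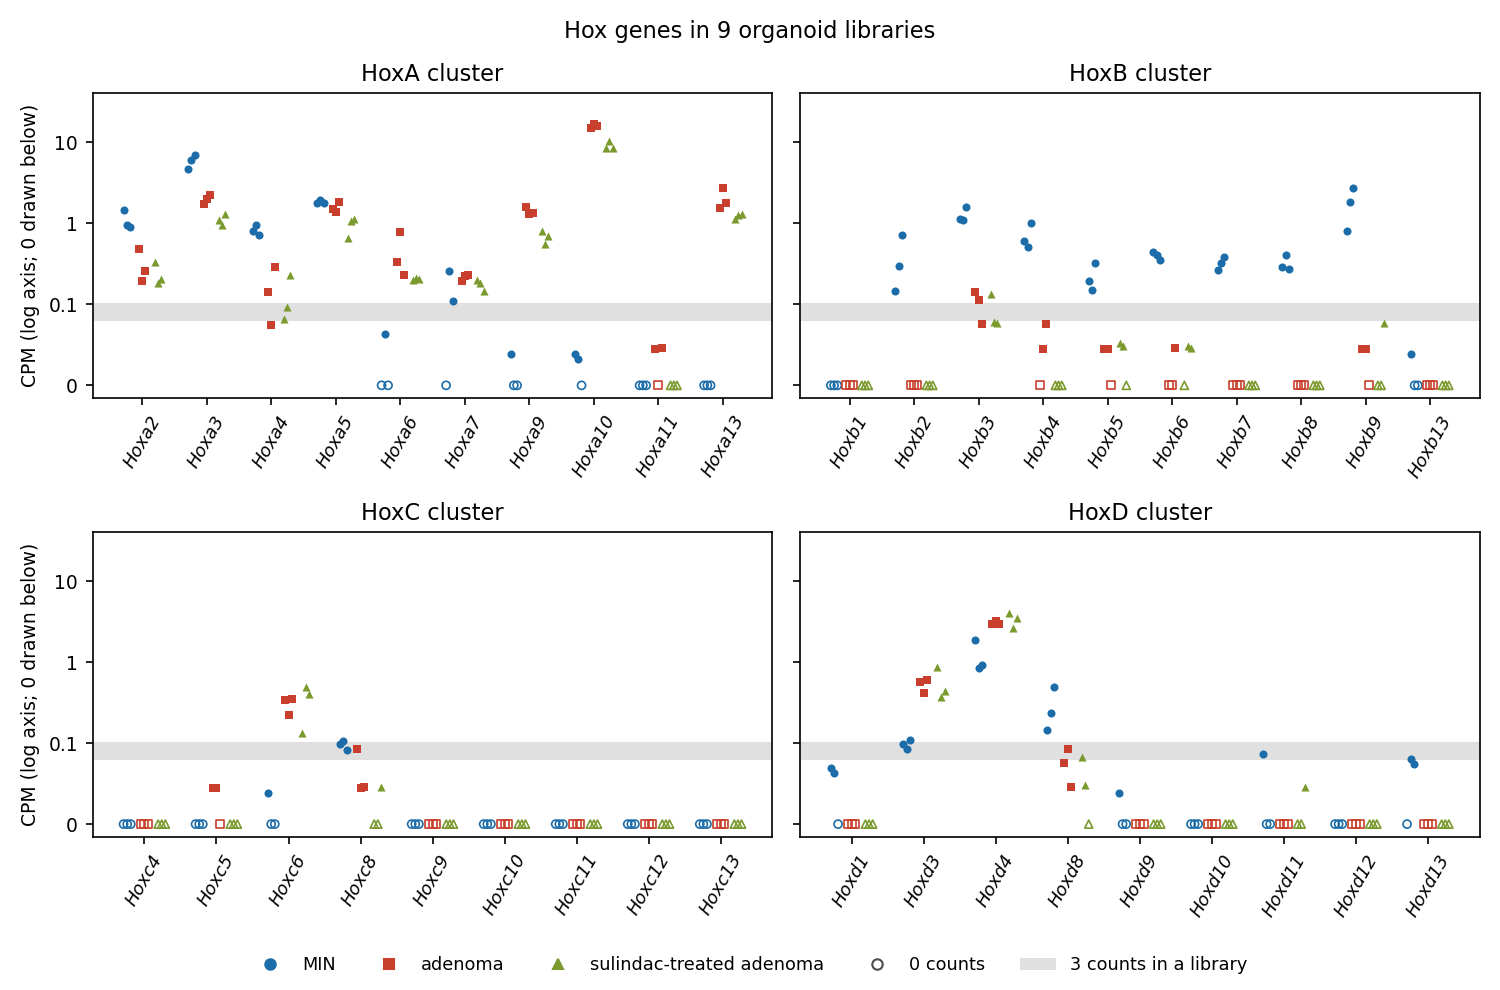
Level of 38 of the 39 Hox genes in each of the 9 libraries, as CPM on a log axis, in 1 panel per cluster with genes in order of number. Circles are MIN, squares adenoma and triangles sulindac-treated adenoma, open symbols mark 0 counts, and the grey band is the level of 3 counts in a library. MIN lies highest at Hoxa2 to Hoxa4 and from Hoxb2 to Hoxb9, and both adenoma groups lie highest at Hoxa9, Hoxa10 and Hoxa13.

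The clusters held different shares of the Hox signal in the 3 groups. The level of all Hox genes summed was 15.4, 17.1 and 20.0 CPM in the MIN libraries, 27.0, 30.0 and 28.4 CPM in adenoma and 18.6, 18.6 and 18.5 CPM with sulindac. Adenoma lay above both other groups without overlap, but this order rests on Hoxa10. That gene had a mean of 15.9 CPM in adenoma, 9.16 CPM with sulindac and 0.0152 CPM in MIN, and without it the MIN sum would be the highest. Within HoxA the sums were divided between Hoxa5 and Hoxa6, a division chosen after the values were seen. Not every member followed it: Hoxa5 and Hoxa7 overlapped between MIN and adenoma, and Hoxa11 stayed at the floor. Hoxa2 to Hoxa5 summed to 9.66 ± 0.833 CPM in MIN (SD, n = 3), 4.02 ± 0.506 CPM in adenoma and 2.45 ± 0.380 CPM with sulindac. Hoxa6 to Hoxa13 were nearly unread in MIN, with a sum of 0.159 ± 0.143 CPM, and reached 20.0 ± 1.83 CPM in adenoma and 11.5 ± 0.931 CPM with sulindac. Most of that sum was Hoxa10 alone, with a mean of 15.9 CPM in adenoma and 9.16 CPM with sulindac. The HoxB sum was 5.43 ± 1.75 CPM in MIN, where adenoma had 0.179 ± 0.0297 CPM, and it was 0.145 ± 0.0222 CPM with sulindac. HoxD lay the other way, with 3.61 ± 0.0895 CPM in adenoma and 3.99 ± 0.938 CPM with sulindac against 1.71 ± 0.503 CPM in MIN. HoxC stayed low, at 0.103 ± 0.0202 CPM, 0.368 ± 0.0852 CPM and 0.353 ± 0.192 CPM. These sums are descriptions and were not tested.

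**Figure D2:**
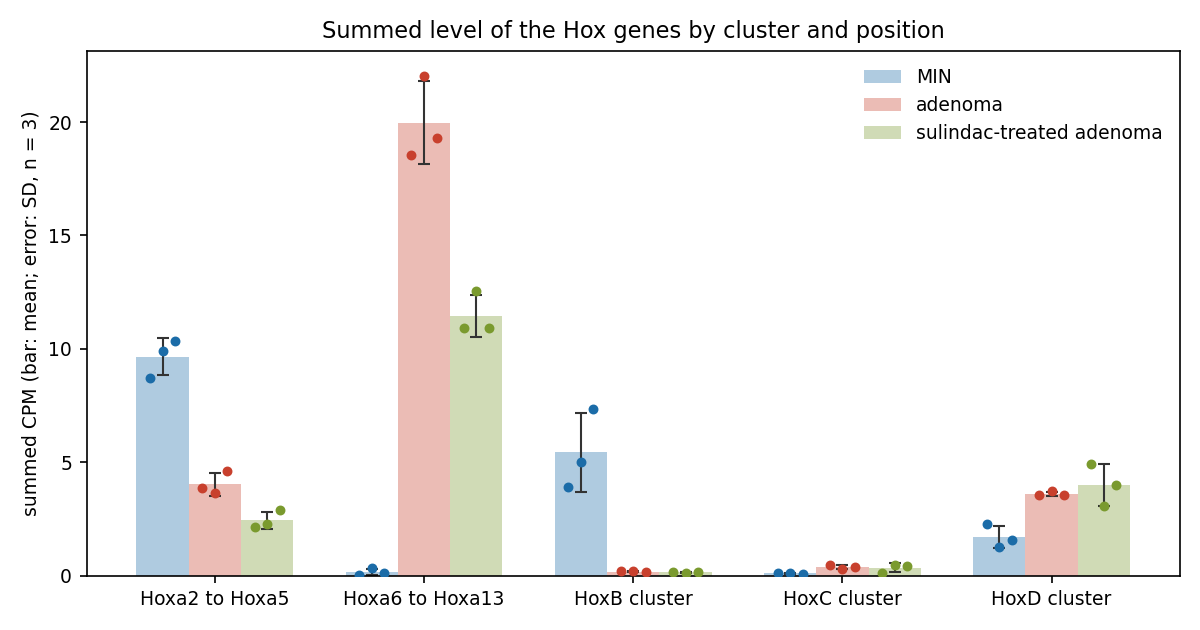
Summed CPM of Hoxa2 to Hoxa5, of Hoxa6 to Hoxa13 and of the HoxB, HoxC and HoxD clusters. Bars are means of 3 libraries, error bars the SD and points the single libraries. The adenoma bar for Hoxa6 to Hoxa13 reaches 20.0 CPM against 0.159 CPM in MIN, and 15.9 CPM of it is Hoxa10. The HoxB bar of MIN, at 5.43 CPM, stands above that of adenoma, at 0.179 CPM.

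Levels of different genes were compared per kilobase of the longest coding transcript in GENCODE M21. In MIN the order was led by Hoxa3, at 1.81, 2.33 and 2.69 CPM per kb, followed by Hoxa5 with a mean of 0.979 and Hoxb9 with a mean of 0.691 CPM per kb. Hoxa3 lay above Hoxa5 in every MIN library, whereas the ranges of Hoxa5 and Hoxb9 overlapped. The adenoma libraries were led by Hoxa10, at 5.80, 6.64 and 6.11 CPM per kb, ahead of Hoxd4 with a mean of 1.18, Hoxa13 with 0.842 and Hoxa5 with 0.831 CPM per kb, and the ranges of Hoxa13 and Hoxa5 overlapped. Hoxa10 also led with sulindac, with a mean of 3.57 CPM per kb, again ahead of Hoxd4 with 1.33 CPM per kb. Of the Hox signal per kilobase, Hoxa2 to Hoxa5 took 57.2% ± 3.65 in MIN and 16.0% ± 2.70 in adenoma, and Hoxa6 to Hoxa13 took 1.10% ± 1.17 and 68.6% ± 3.92.

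Sequence from before the start is given for 4 members that stood out in this pattern. The RefSeq promoter table for GRCm38.p6 held 24 windows for 22 of the 39 Hox genes, matched by symbol, and the 250 bases before the annotated start were read from it. The counts themselves were made on the mm9 build, and no coordinate was carried over from it. Shown are Hoxa10 and Hoxa13, the posterior HoxA genes with the most counts in adenoma, Hoxb4 from the cluster that was read only at or below the floor in adenoma apart from Hoxb3, and Hoxd4, the HoxD gene with the most counts. Their windows are chr6:52240855-52241104 on the minus strand for Hoxa10 (the farther upstream of its starts), chr6:52260881-52261130 on the minus strand for Hoxa13, chr11:96318017-96318266 on the plus strand for Hoxb4 and chr2:74721728-74721977 on the plus strand for Hoxd4. Each is written 5′ to 3′ on the strand of the gene, with matches to the motifs searched in capitals.
Hoxa10: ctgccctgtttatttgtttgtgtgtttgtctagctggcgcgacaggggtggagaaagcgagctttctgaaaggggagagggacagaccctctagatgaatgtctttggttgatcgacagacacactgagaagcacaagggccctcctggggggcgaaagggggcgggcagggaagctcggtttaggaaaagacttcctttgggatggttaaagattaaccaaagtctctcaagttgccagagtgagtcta
Hoxa13: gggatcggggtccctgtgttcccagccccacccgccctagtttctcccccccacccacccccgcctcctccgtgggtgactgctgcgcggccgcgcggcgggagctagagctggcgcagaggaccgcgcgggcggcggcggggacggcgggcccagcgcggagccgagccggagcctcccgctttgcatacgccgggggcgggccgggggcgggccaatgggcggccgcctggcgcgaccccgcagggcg
Hoxb4: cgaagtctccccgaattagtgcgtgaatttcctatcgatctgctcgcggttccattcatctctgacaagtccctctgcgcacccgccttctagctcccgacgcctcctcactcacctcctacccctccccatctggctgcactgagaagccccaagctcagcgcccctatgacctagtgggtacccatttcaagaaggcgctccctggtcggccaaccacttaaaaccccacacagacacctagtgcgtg
Hoxd4: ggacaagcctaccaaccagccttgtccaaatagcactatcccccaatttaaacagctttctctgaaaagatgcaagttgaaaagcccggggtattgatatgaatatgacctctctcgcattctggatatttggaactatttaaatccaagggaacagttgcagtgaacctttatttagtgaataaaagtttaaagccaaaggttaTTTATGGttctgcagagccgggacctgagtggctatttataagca
The motifs searched on both strands were TTTATGG for Cdx proteins, CTTTGAT for the TCF factors of the Wnt pathway and TGATTNAT for a Hox protein with Pbx, and none of the letters matched overlapped between motifs. The Cdx letters were found in 1 window, that of Hoxd4 above, against 2.4% of all 32851 RefSeq windows. The TCF letters were found in the Hoxd8 window alone, against 3.2% of all windows, and the Pbx-Hox letters in the windows of Hoxa2 and Hoxd11, against 2.8%. The median GC content of the Hox windows was 58.6%, against 52.4% for all windows.

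The first comparison asked which Hox genes differ between adenoma and the normal-appearing epithelium of the same kind of mouse. In adenoma, 3 HoxA genes from Hoxa9 upward and 2 HoxD genes were higher, and 3 HoxA genes from Hoxa2 to Hoxa4 and 4 HoxB genes were lower. Genes with low counts were removed by the filter of edgeR, which left 13744 genes, and its quasi-likelihood test was applied to these at a false discovery rate (FDR) of 1%, adjusted by Benjamini-Hochberg. The filter kept 14 of the 39 Hox genes, and some of them passed it through the group in which they were high. Of these, 5 were higher and 7 lower in adenoma, where 18.5% of all genes tested were higher and 20.1% lower. The median log2 fold change was -1.07 over the 14 Hox genes and -0.01 over all genes tested. Without the filter, 30 Hox genes had a count and 7 were higher and 11 lower, against 14.4% and 16.4% of all 18641 genes. Whether a lower count reflects fewer cells of a type or less RNA per cell cannot be told apart in such bulk libraries.

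Of the posterior HoxA genes, Hoxa9, Hoxa10 and Hoxa13 were at the floor in MIN and present in every adenoma library. Hoxa10, a member of the Abd-B group of Hox genes, had 1, 1 and 0 counts in MIN and 530, 610 and 542 in adenoma, or 14.9, 17.0 and 15.7 CPM. The groups were far apart, and the count ratio was 989 with a 95% counting interval of 273 to 8171 (edgeR adjusted p = 1.72e-07). No stretch of 50 bases of Hoxa10 recurs in another gene of GENCODE M21. Hoxa13, the 5′-most gene of the cluster and a gene of the hindgut, had 0 counts in all MIN libraries and 55, 97 and 62 in adenoma. That made it at least 27.6-fold higher when MIN was set to 3 counts per library (adjusted p = 7.95e-05). Hoxa9 had 1, 0 and 0 counts in MIN and 56, 46 and 47 in adenoma, a count ratio of 175 with an interval of 31.0 to 6965 (adjusted p = 2.20e-05). All 3 genes kept their call in each of the 6 fits that left out 1 library.

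Not every HoxA gene from Hoxa6 upward passed in this way. Hoxa11, which lies between Hoxa10 and Hoxa13, had 0 counts in MIN and 1, 0 and 1 in adenoma, so it remained at the floor between neighbours that were read. Hoxa6 had 0, 2 and 0 counts in MIN and 12, 28 and 8 in adenoma. It was removed by the filter and passed the threshold without it, with a count ratio of 28.2 and an interval of 7.40 to 240 (adjusted p = 0.00143). Of the 4 fits without 1 library that kept it, it lost the call without MIN replicate 1 or 3 (at most 0.0111). Hoxa7 had 0, 12 and 4 counts in MIN and 7, 8 and 8 in adenoma, and its groups overlapped.

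From Hoxa2 to Hoxa5, 3 HoxA genes were lower in adenoma and Hoxa5 did not pass. Hoxa3, a gene of paralog group 3 known from pharyngeal development, was at 4.70, 6.03 and 6.97 CPM in MIN and 1.74, 2.01 and 2.23 CPM in adenoma. The groups did not overlap, and the log2 fold change was -1.56 (SE 0.23, adjusted p = 0.000548). Hoxa2, best known from the hindbrain and branchial arches, was at 1.46, 0.940 and 0.899 CPM against 0.477, 0.196 and 0.260 CPM, with a log2 fold change of -1.81 (SE 0.41, adjusted p = 0.00561). Its groups did not overlap either, but the call was lost in 4 of the 6 fits that left out 1 library, those without adenoma replicate 2 or 3 or MIN replicate 1 or 2, where the adjusted p rose to at most 0.0243. Hoxa4 had 33, 45 and 26 counts in MIN and 5, 2 and 10 in adenoma, with a log2 fold change of -2.34 (SE 0.49, adjusted p = 0.00357). In the fit that blocks on replicate number Hoxa4 lost the call (adjusted p = 0.0104), and it also lost it without adenoma replicate 1 or 2 or MIN replicate 2 (at most 0.0153). Hoxa5, a gene active in gut and lung development, was at 1.78, 1.97 and 1.77 CPM in MIN and 1.49, 1.37 and 1.82 CPM in adenoma, and the groups overlapped (log2 fold change -0.24, SE 0.24, adjusted p = 0.450).

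HoxB was read in MIN from Hoxb2 to Hoxb9 and was at or near the floor in adenoma. For all 8 genes the lowest MIN library lay above the highest adenoma library. Over the Hox genes such a separation was seen for 7 genes higher and 12 lower in adenoma, against 25.5% and 27.7% of all 18641 genes with a count. Hoxb9, the 5′-most gene of that stretch, had 33, 86 and 99 counts in MIN and 1, 1 and 0 in adenoma, a count ratio of 92.7 with an interval of 25.4 to 770 (adjusted p = 0.000172). The MIN libraries themselves ranged from 0.803 to 2.70 CPM of Hoxb9. Hoxb3 had 47, 51 and 59 counts in MIN and 5, 4 and 2 in adenoma, and its log2 fold change was -3.58 (SE 0.41, adjusted p = 0.000122). Of its stretches of 50 bases, 51.4% recur in Hoxb3os, a noncoding gene of the opposite strand, and since the counting is not stated to use strand, their reads cannot be told apart. The same limit holds in part for Hoxb2, with 25.9% in Hoxb3os. Hoxa3, Hoxa4 and Hoxa2 share 24.3%, 13.3% and 12.7% of their stretches with other genes.

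The other HoxB genes showed the same separation at lower counts. Hoxb4 had 25, 24 and 37 counts in MIN and 0, 1 and 2 in adenoma, with a count ratio of 24.4 and an interval of 8.07 to 121 (adjusted p = 0.000538). Hoxb6 had 18, 19 and 13 counts against 0, 0 and 1, with a ratio of 42.5 and an interval of 7.29 to 1713 (adjusted p = 0.000467). Hoxb2, Hoxb7 and Hoxb8 had 6 to 26 counts in MIN and 0 in all adenoma libraries, and were at least 4.53-, 3.81- and 3.81-fold lower. Hoxb5 had 8, 7 and 12 counts against 1, 1 and 0. These 4 genes were removed by the filter, and each passed the threshold without it, with adjusted p-values from 0.000595 to 0.00677. Hoxb2 was kept by the filter in the 3 fits without an adenoma library and passed in 0 of them (adjusted p at most 0.0178). Hoxb13, which lies apart at the 5′ end of the cluster, had 1 count in 1 MIN library and none elsewhere.

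In HoxC and HoxD the differences were fewer. Hoxd4 was at 1.87, 0.855 and 0.926 CPM in MIN and 2.95, 3.21 and 2.92 CPM in adenoma, a log2 fold change of 1.31 (SE 0.33, adjusted p = 0.00986). This call lay close to the threshold: it was lost with the replicate block (adjusted p = 0.0107), with RLE size factors (0.0102), with the first run of MIN replicate 1 in place of the sum of its runs (0.0173) and in 5 of the 6 fits without 1 library, all but that without MIN replicate 1 (at most 0.0387). Hoxd3 had 4 counts in each MIN library and 20, 15 and 21 in adenoma, with a log2 fold change of 2.42 (SE 0.39, adjusted p = 0.000883). Hoxd3 and Hoxd4 share 60.3% and 46.8% of their stretches of 50 bases with other genes, mainly the overlapping gene Gm28230, so reads may have been split between them. Hoxd8 had 6, 11 and 18 counts in MIN and 2, 3 and 1 in adenoma without overlap, with a count ratio of 4.96 and an interval of 2.07 to 14.4, and did not pass without the filter (adjusted p = 0.0206). Hoxc6 had 1, 0 and 0 counts in MIN and 12, 8 and 12 in adenoma, a ratio of 37.6 with an interval of 6.28 to 1532, and was removed by the filter. It passed without the filter (adjusted p = 0.000825) and in the 4 fits without 1 library that kept it. Hoxc8 had 4, 5 and 3 counts against 3, 1 and 1, and the groups overlapped.

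**Figure D3:**
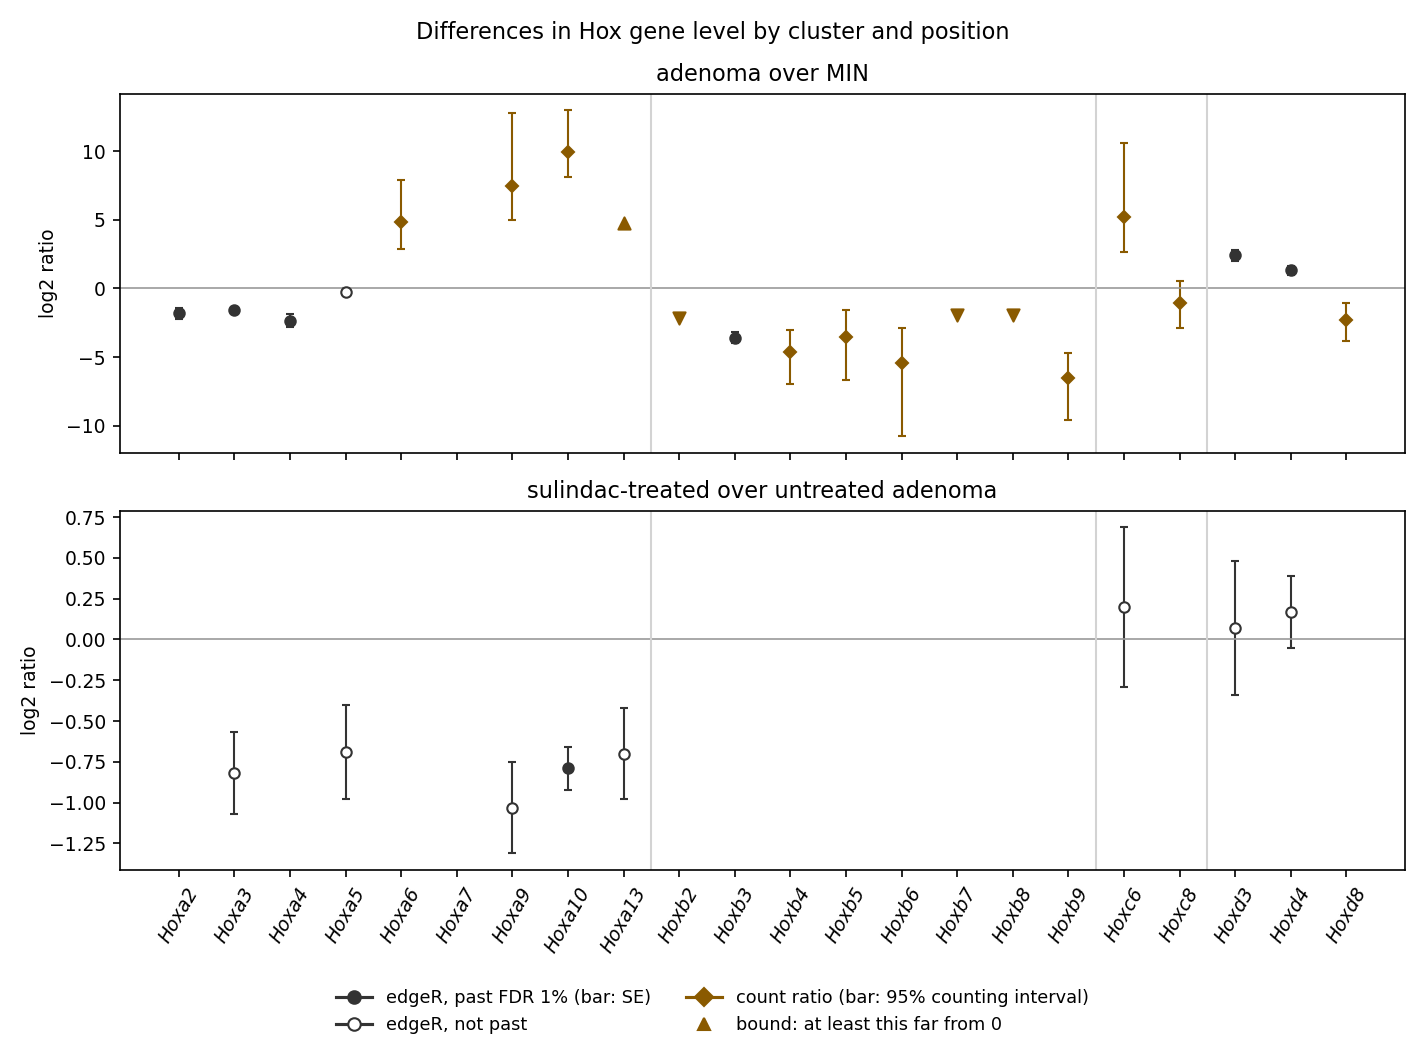
Log2 ratio of 22 of the 23 Hox genes above the floor in at least 1 library, for adenoma over MIN and for sulindac-treated over untreated adenoma, in order of cluster and number. Filled circles passed the edgeR test at an FDR of 1%, open circles did not (bars are SE), diamonds are count ratios with 95% counting intervals where 1 group had at most 3 counts in every library, and triangles are bounds set by 3 counts per library. In the upper panel HoxB lies below 0 throughout and Hoxa6 to Hoxa13 above it, with no value drawn for Hoxa7, and in the lower panel the only filled circle is Hoxa10.

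The second comparison asked what sulindac did to the adenoma pattern. Hoxa10 fell, and the other Hox genes tested did not pass the threshold. Hoxa9 and Hoxa13 were still read in every library with sulindac, and each HoxB gene had at most 4 counts there. Of the 8 Hox genes that passed the filter, 0 were higher and 1 was lower, against 8.32% higher and 9.10% lower of the 12962 genes tested. At an unadjusted p under 0.05 the numbers were 0 higher and 5 lower. No share of all genes was taken at that threshold, so the 5 cannot be set against the 9.10%. DESeq2 also gave 0 higher and 1 lower. The median log2 fold change was -0.70 over these 8 genes and -0.01 over all genes. Hoxa10 went from 14.9, 17.0 and 15.7 CPM to 8.60, 10.3 and 8.55 CPM, a log2 fold change of -0.79 (SE 0.13, adjusted p = 0.00288). The groups did not overlap, but the call was lost without sulindac replicate 1 or 3 or adenoma replicate 2, where the adjusted p was at most 0.0193.

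The other HoxA genes tested, Hoxa3, Hoxa5, Hoxa9 and Hoxa13, lay lower with sulindac without passing the threshold. Hoxa9 was at 1.57, 1.29 and 1.36 CPM in untreated adenoma and 0.800, 0.550 and 0.698 CPM with sulindac (log2 fold change -1.03, SE 0.28, adjusted p = 0.0213). Hoxa13 was at 1.54, 2.71 and 1.79 CPM against 1.13, 1.25 and 1.31 CPM (log2 fold change -0.70, SE 0.28, adjusted p = 0.0894). Hoxa3 was at 1.74, 2.01 and 2.23 CPM against 1.10, 0.948 and 1.31 CPM (log2 fold change -0.82, SE 0.25, adjusted p = 0.0346). Each of these pairs of groups was apart, as were those of Hoxa5 and Hoxa6. Hoxa6 was removed by the filter, and so were Hoxa2, Hoxa4 and Hoxa7, whose groups overlapped. In all, 6 Hox genes lay lower without overlap, all of them in HoxA, and 0 lay higher, where 21.3% of the 17788 genes with a count lay lower and 18.0% higher in this way. Hoxa5 was at 0.667, 1.07 and 1.13 CPM with sulindac (log2 fold change -0.69, SE 0.29, adjusted p = 0.0971). Hoxc6, Hoxd3 and Hoxd4 overlapped between the groups, with log2 fold changes of 0.20 (SE 0.49), 0.07 (SE 0.41) and 0.17 (SE 0.22). No HoxB gene passed the filter here, and the highest HoxB count in the adenoma libraries of both kinds was 5, in Hoxb3.

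The third comparison, sulindac-treated adenoma against MIN, shares its libraries with both others and is given side by side with the first. Of 14 Hox genes tested, 5 were higher, Hoxa9, Hoxa10, Hoxa13, Hoxd3 and Hoxd4, where 23.0% of the 13551 genes tested were higher. Hoxa2, Hoxa3, Hoxa4, Hoxb3, Hoxb4, Hoxb6 and Hoxb9 made 7 lower, where 26.8% were lower. Hoxa10 had 258, 338 and 294 counts with sulindac and a count ratio of 571 to MIN with an interval of 158 to 4723, where untreated adenoma had 989. Hoxa13 had 34, 41 and 45 counts and was at least 16.9-fold above MIN, where untreated adenoma was at least 27.6-fold above it. For Hoxa3 the log2 fold change to MIN was -2.39 (SE 0.24, adjusted p = 4.70e-05), against -1.56 for untreated adenoma. For Hoxd4 it was 1.47 (SE 0.35, adjusted p = 0.00556) and lost the call without sulindac replicate 1 or 3 or MIN replicate 2 (adjusted p at most 0.0243). Hoxd3 lost it without MIN replicate 1 or 2 (at most 0.0121). Hoxa5 lay below MIN without overlap and did not pass (log2 fold change -0.94, SE 0.28, adjusted p = 0.0170).

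Genes around the clusters were called in both directions, at a rate near that of all genes. Of 22 genes listed as neighbours of the 4 clusters, 21 were in the table, and between adenoma and MIN 3 were higher, 4 lower, 11 did not pass and 3 were not tested, with a median log2 fold change of -0.02. Of all genes tested, 18.5% were higher and 20.1% lower. By cluster, 2 were higher and 0 lower of 4 beside HoxA, 0 and 2 of 7 beside HoxB, 1 and 1 of 5 beside HoxC, and 0 and 1 of 5 beside HoxD. Evx1, a homeobox gene next to Hoxa13, had 2, 0 and 6 counts in MIN, 20, 36 and 43 in adenoma and 3, 0 and 2 with sulindac. It was higher in adenoma than MIN (log2 fold change 3.77, SE 0.73, adjusted p = 0.00235) and fell with sulindac, where the count ratio of untreated to treated was 18.1 with an interval of 7.52 to 57.1 (adjusted p = 0.00246). Snx10, which lies beyond the 3′ end of HoxA, rose as well in adenoma (log2 fold change 0.86, adjusted p = 0.000148), and Skap2 beside it did not pass (log2 fold change 0.04). Among the noncoding genes within the clusters, 15 RefSeq entries matched a row of the table and 10 of them never exceeded 3 counts. The lncRNA 2700086A05Rik, named Hoxaas3 in RefSeq, had 41, 38 and 25 counts in MIN and 5, 4 and 3 in adenoma (log2 fold change -2.84, adjusted p = 0.000312). Of the stretches of 50 bases of Hoxa7, 18.7% recur in Hoxaas3, so reads may have been split between them. Mira, another lncRNA of HoxA, did not pass (log2 fold change -0.23, adjusted p = 0.643). Hottip, a lncRNA at the Hoxa13 end, had 0 counts in MIN, 3, 11 and 9 in adenoma and 1, 2 and 1 with sulindac, and was not tested. These noncoding genes were singled out after their values were seen.

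Most of the DNA-binding partners of Hox proteins that were listed passed the test as higher in adenoma. Of the 9 TALE cofactors, the Pbx, Meis and Pknox genes whose proteins bind DNA beside Hox proteins, 6 were higher and 0 lower in adenoma than MIN, 2 did not pass and 1 was not tested, where 18.5% of all genes tested were higher and 20.1% lower. At an unadjusted p under 0.05, where no share of all genes was taken, the numbers were 6 and 1, and by DESeq2 6 and 0. Their median log2 fold change was 1.34. Meis1 had 2, 0 and 5 counts in MIN and 104, 115 and 92 in adenoma (log2 fold change 5.61, SE 0.60, adjusted p = 7.55e-05). Meis2 had 39, 28 and 37 counts against 599, 514 and 637 (log2 fold change 4.29, adjusted p = 1.97e-06). Pbx4 rose by 1.41 on the log2 scale (adjusted p = 0.00245). Between sulindac-treated and untreated adenoma 8 did not pass by edgeR and 1 was not tested, where 8.32% of all genes tested were higher and 9.10% lower. At an unadjusted p under 0.05, without a share of all genes, 0 were higher and 2 lower, and by DESeq2 0 and 1. With sulindac Meis1 and Meis2 had 67 to 75 and 534 to 617 counts. Of 25 chromatin regulators of the Polycomb and Trithorax groups, which hold Hox clusters silent or active, 8 were higher in adenoma than MIN. None was lower and 17 did not pass, beside the same 18.5% and 20.1% of all genes. By DESeq2 the numbers were 8 and 0, and at an unadjusted p under 0.05, again without a share of all genes, 10 and 2. Their median log2 fold change was 0.15, and the largest rises were Phc1 with 1.94, Phc2 with 1.42 and Bmi1 with 1.08. With sulindac against without, 1 was higher, 3 were lower and 21 did not pass, where 8.32% of all genes tested were higher and 9.10% lower.

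ParaHox genes and markers of gut region are given beside the Hox genes. Cdx1, an intestinal ParaHox gene, had 3743, 5330 and 3627 counts in MIN and 2, 2 and 5 in adenoma (log2 fold change -10.16, SE 0.25, adjusted p = 3.26e-08). Cdx2, its paralog and a determinant of intestinal identity, was at 243, 256 and 279 CPM in MIN and 119, 126 and 117 CPM in adenoma (log2 fold change -1.10, adjusted p = 3.37e-05). Pdx1, a ParaHox gene of duodenum and pancreas, rose from 16, 9 and 12 counts to 366, 505 and 360 (log2 fold change 5.26, adjusted p = 2.14e-06). Gata4, a factor of the proximal small intestine, was lower in adenoma by a log2 fold change of -0.72 (adjusted p = 0.000282). Fabp6, a bile acid binding protein of the ileum, had 249, 237 and 100 counts in MIN and 1, 0 and 0 in adenoma, and Sox2, a stomach factor, had at most 1 count in any library. By list, adenoma was higher than MIN for 2 and lower for 7 of 9 markers of the proximal small intestine, higher for 1 and lower for 6 of 7 of the distal small intestine, lower for 5 of 7 of the colon, and higher for 2 and lower for 3 of 11 of the stomach, where 18.5% of all genes tested were higher and 20.1% lower. These lists include genes of differentiated cells, and the part of differentiation in their values, or in those of the Hox genes beside them, was not tested.

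**Figure D4:**
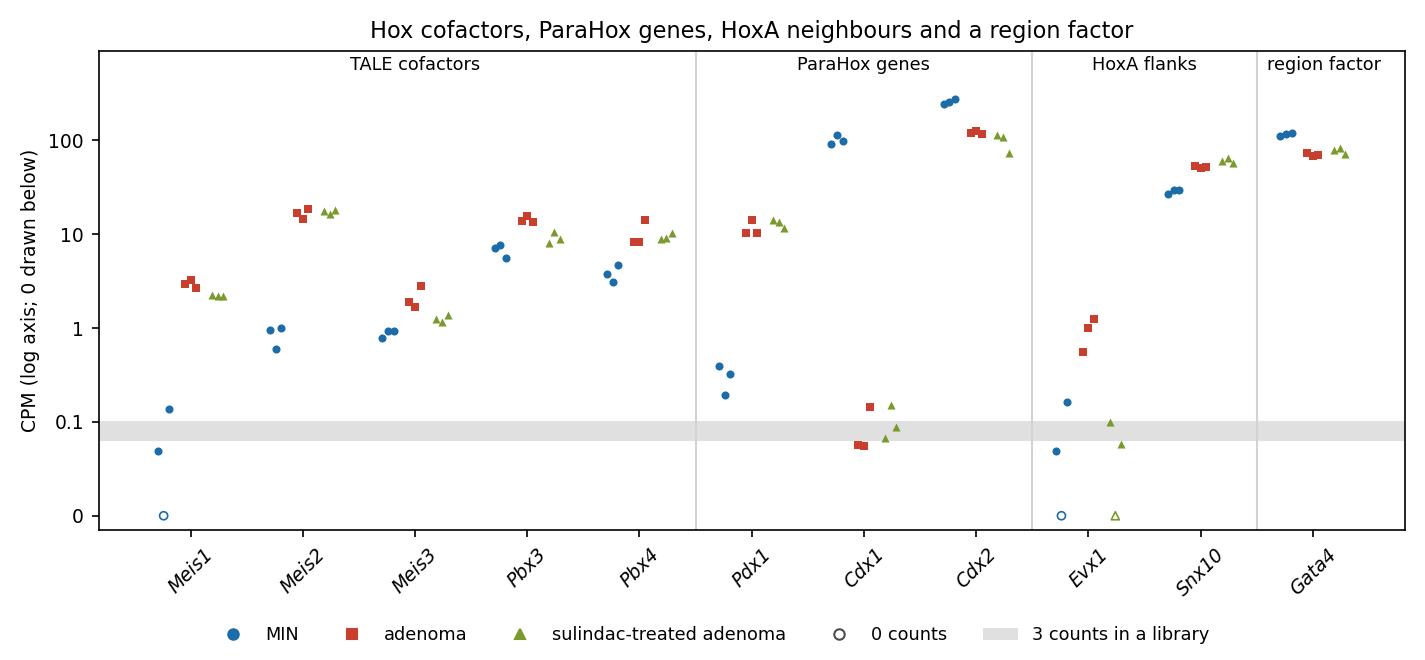
Level of TALE cofactors, ParaHox genes, genes flanking HoxA and a region factor in each library, as CPM on a log axis, with symbols as in the plot of all Hox genes. Meis1, Meis2 and Pdx1 lie higher in both adenoma groups than in MIN, Cdx1 lies at a mean of 101 CPM in MIN and near the grey band of 3 counts in both adenoma groups, and Evx1 lies high in untreated adenoma alone.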

How the data were processed

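RNA-seq was done on 9 organoid libraries in 3 groups of 3, and groups and replicate numbers were taken from the sample titles. The authors deposited 1 table of raw counts per gene symbol. Per the labels, RSEM and Bowtie2 2.2.4 and the mm9 build were used, and the annotation and the strandedness of counting are not given in the sources used here. MIN replicate 1 has 3 columns, of which the sum of its runs was used as 1 library. From these counts, genes were filtered with filterByExpr, normalized by TMM and compared with the quasi-likelihood test of edgeR 4.0.16 (robust fits) in R 4.3.3, with only the groups compared in each fit and Benjamini-Hochberg adjustment over all genes tested at the study's FDR of 1%. Standard errors were derived from the F statistic, as the size of the log2 fold change over its root. The code was tested on simulated data. No sample of the table was left out. The single runs of MIN replicate 1 entered through their sum, and its first run also in 1 alternative fit.

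Where 1 group had at most 3 counts in every library, a ratio of summed counts with an exact 95% counting interval, or a bound at 3 counts per library, is given in place of a fitted fold change. Same-numbered adenoma and MIN libraries deviated together weakly from their group means, with correlations across genes of 0.125, 0.114 and 0.192 against a set minimum of 0.1. The labels do not say whether equal numbers mark pairs, and the main fits, which gave all calls, did not pair them. A fit with the replicate number as a block is given beside them where it changed a call. In the other comparisons not every pair exceeded 0.1. Transcript lengths and shared stretches of 50 bases came from GENCODE M21, and promoter windows from RefSeq. Alternatives tried were size factors by RLE, library size alone, no filter, at least 10 counts in every library, a single fit of all 9 libraries, the block, the Wald test of DESeq2 1.42.0, the first run of MIN replicate 1, leaving out each library, an FDR of 5% and a minimum change of 2-fold.

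Some genes, a Hox gene among them, are not reported singly here. Values by library are given for genes past an FDR of 1% or with a mean above 1 CPM in a group, genes with no library above 3 counts are only listed, and at most 4 genes past the threshold are named for each other list, beside fixed marker genes. The Hox genes and the lists were chosen with earlier results of these data known.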

Additional observations from a re-analysis of the deposited data

How the results depend on the processing

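Of the values of single Hox genes under an alternative, 169 for adenoma over MIN kept their direction and side of the threshold and 16 lost the call. For sulindac-treated adenoma over MIN 180 kept them and 5 lost the call, and for sulindac-treated over untreated adenoma 96 kept them, 3 lost the call and 4 changed sign. With at least 10 counts in every library, which leaves out genes near 0 in either group, adenoma over MIN gave 1 higher and 1 lower, and sulindac-treated adenoma over MIN also 1 and 1. With no filter the number lower rose to 11 for adenoma over MIN, where 16.4% of all 18641 genes were lower, and to 12 for sulindac-treated adenoma over MIN. For that 12 and the other counts of called Hox genes in this paragraph, no share of all genes was taken. Leaving out 1 library gave 4 to 6 higher and 5 to 8 lower for adenoma over MIN, 4 to 6 and 7 to 9 for sulindac-treated adenoma over MIN, and 0 higher and 0 to 1 lower for sulindac-treated over untreated adenoma. That last number lower was 3 at an FDR of 5% and 0 with a minimum change of 2-fold.

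The median log2 fold change is taken over genes that fall into a low and a high group, and it moved with the genes tested. For adenoma over MIN it was -1.79 with no filter, -0.24 with at least 10 counts, -0.59 in the single fit of 9 libraries and -2.25 to -0.37 without 1 library. For sulindac-treated adenoma over MIN it was -2.30, -0.97, -1.16 and -2.52 to -1.14 in the same order. For sulindac-treated over untreated adenoma it was -0.38 in the single fit and -0.77 to -0.66 without 1 library. A median with genes near the floor at their ratio or bound, added after the data were seen, equalled the main one. It is no check of the median, which the middle genes set. The genes replaced lay toward the ends of the order, and for sulindac-treated over untreated adenoma none was replaced.

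By library size alone the summed levels in adenoma were 30.5 CPM for all Hox genes, 26.0 CPM for HoxA and 3.87 CPM for HoxD, and with sulindac 17.8 CPM for all Hox genes and 3.84 CPM for HoxD, so that HoxD was then lower with sulindac than in untreated adenoma, where it was higher by TMM. Without 1 library the sum of all Hox genes stayed within 16.3 to 18.5 CPM (MIN) and 27.7 to 29.2 CPM (adenoma). The replicate block gave 4 higher and 6 lower for adenoma over MIN, losing Hoxa4 and Hoxd4, and changed no other call of a Hox gene in any of the 3 comparisons. Of the values by gene, only log2 fold changes of sulindac-treated over untreated adenoma that had not passed changed sign: Hoxc6 was -0.11 without sulindac replicate 2 and up to 0.57 without another library, and Hoxd3 was -0.09 by library size alone, -0.39 without sulindac replicate 1, -0.06 without adenoma replicate 2 and up to 0.31 without another. The cause was not tested. In HoxC and HoxD most genes were at or under 3 counts, where a difference was not detectable at this depth.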

Other observations

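The pattern by position can be read across clusters for the paralogs that were measured. Of paralog group 9, Hoxa9 was read in adenoma and Hoxb9 in MIN, with 56, 46 and 47 counts of Hoxa9 in adenoma where Hoxb9 had 1, 1 and 0, and 33, 86 and 99 counts of Hoxb9 in MIN where Hoxa9 had 1, 0 and 0. Hoxc9 and Hoxd9 had at most 1 count in any library. Of paralog group 6, Hoxa6 and Hoxc6 were above the floor in all adenoma libraries and at the floor in MIN, and Hoxb6 was the reverse, with 18, 19 and 13 counts in MIN and at most 1 in adenoma. Of group 3, Hoxa3 and Hoxb3 were lower in adenoma and Hoxd3 higher. Of group 4, Hoxa4 and Hoxb4 were lower and Hoxd4 higher, while Hoxc4 had 0 counts throughout. Of group 13, Hoxa13 was read in adenoma, and Hoxb13 and Hoxd13 had at most 3 counts in any library and none in adenoma. These pairings of paralogs were put together after the values were seen, and no test was made on them.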
